A study of Mus musculus with 28 samples.

Results

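Splenic dendritic cells given angiotensin II (Ang II) together with hydralazine and hydrochlorothiazide (Hyd/HCTZ) were compared with vehicle-treated splenic dendritic cells. The comparison used 13 of the 28 arrays of the series, chosen by their labels alone: 6 arrays titled Ang II + TT and 7 titled WT Sham. Both groups came from 3-month-old wild-type C57BL6/J mice. For side-by-side values, 4 arrays of wild-type cells given Ang II with 2-hydroxybenzylamine (2-HOBA) and 4 given Ang II alone were read as well. The other 7 arrays held cells of NOX2 knockout mice, 4 with Ang II and 3 with vehicle. They were in none of the group differences but entered the estimate of the spread. They also entered the choice of probe sets, the level filter, the quantile normalization and the component of the control probe sets. The series title names hypertension, whereas the design text describes cells treated after isolation, so the sources used here do not settle whether mice or cells received the agents. Doses, times, the gate for dendritic cells and any pooling of animals are missing from the sources used here, and p-values measure the spread between these arrays. No group with Hyd/HCTZ but without Ang II was used here, so the difference from vehicle is that of the 3 agents together.

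Dendritic cells take up antigen, present it on MHC molecules and, once activated, display costimulatory ligands and secrete cytokines that instruct T cells. Ang II is the peptide hormone of the renin-angiotensin system and raises blood pressure. Hydralazine relaxes arterial smooth muscle and hydrochlorothiazide is a diuretic, and together they are a standard means of lowering blood pressure in mice given Ang II. 2-HOBA traps reactive carbonyl products of oxidized lipids.

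Levels below are the deposited log2 values, on which a difference of 1 is a 2-fold difference. The genes were those with a probe set of exactly 1 symbol and a level above 5 on at least 3 arrays, 10452 of 19938 named genes. By the median difference, Hyd/HCTZ arrays exceeded vehicle arrays by 0.31 over all of these genes. Every difference and fold below is therefore given relative to that median, so that the median of all tested genes is 0, and "rose" or "fell" means that a gene differed from it at a Benjamini-Hochberg adjusted p below 0.05 in limma. Where a group averaged below 5, the level 5 was put in its place and the fold is given as "at least". Where both groups averaged below 5 no difference is given, although such a gene stays in the counts: 5 of the genes called higher and 798 of those called lower were of this kind.

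The interquartile range of an array was 3.09 to 3.44 on the Hyd/HCTZ arrays, 2.61 to 2.84 with 2-HOBA, 2.48 to 2.82 with Ang II alone and 1.92 to 3.03 with vehicle. The lowest of these belonged to vehicle replicate 2, whose mean correlation with the other arrays was 0.852, against 0.927 to 0.956 for the rest. Its level of Cybb, the gene of NOX2, was 6.34, lower than on any knockout array (6.41 to 7.18) and below the other vehicle arrays (8.51 to 9.57). By Cybb alone this array goes against its wild-type label. It was, however, the lowest of its group for 111 of the 193 named genes, so Cybb alone does not settle the label. What lowered its Cybb was not tested. On the Hyd/HCTZ side replicate 4 was the lowest array of its group for 78 of the 193 genes named by the rules of this work, more than any other array of its group. Over 6612 probe sets that were assumed to be controls because of their identifiers, the first principal component held 27.7% of the variance. The Hyd/HCTZ arrays scored 48.2 to 58.7 on it, apart from every array with 2-HOBA (-5.9 to 5.4), with Ang II alone (-35.8 to 13.6) or with vehicle (-61.1 to 17.8). Vehicle replicates 4 to 7 scored between 0.3 and 17.8 and vehicle replicates 1 and 3 scored -20.9 and -27.5. The labels gave no batch, so the handling of these arrays and the treatment cannot be told apart.

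Against vehicle, 5467 genes were called in limma, 52.3% of those tested, with 2645 higher (25.3%) and 2822 lower (27%). After quantile normalization of all arrays the counts were 4972 called (47.6%), 2791 higher (26.7%) and 2181 lower (20.9%). In the same direction both ways, 42.2% of genes were called, of which 2512 rose (24%) and 1899 fell (18.2%). On the deposited scale, with no median subtracted, 56.6% were called, 4537 genes higher (43.4%) and 1382 lower (13.2%). Without vehicle replicate 2, 55.1% were called, 2910 higher (27.8%) and 2853 lower (27.3%). With vehicle replicates 4 to 7 alone 44.3% were called, 2529 higher (24.2%) and 2100 lower (20.1%), and with vehicle replicates 1 and 3 alone 54.5%. Separation was read on the deposited values, for genes whose difference lay on the same side of the median of all genes. All 6 Hyd/HCTZ arrays lay above all 7 vehicle arrays for 2612 such genes (25%) and below all of them for 378 (3.62%). The deposited values were higher with Hyd/HCTZ by a median of 0.31, which favours separation upward. With the call required both ways and the groups apart, 2150 genes were higher (20.6%) and 368 lower (3.52%).

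The difference depended on how bright a gene was, which bears on every fall of a dim gene and every rise of a bright gene below. Among 1750 genes with a mean level of 4 to 5 the median difference was -0.56, and after quantile normalization -0.25. Among 227 genes at 9 to 10 it was 0.43, and after quantile normalization 0.28. Called higher were 135 of 1750 genes at 4 to 5, 614 of 1654 at 7 to 8 and 279 of 658 at 8 to 9. The shares of all genes set beside the lists below are not matched for level, so a bright list can exceed them by its level alone. Dim genes thus lay lower and bright genes higher on the Hyd/HCTZ arrays by both measures. The quantile value is given for the leading genes whose groups both averaged 5 or more.

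**Figure D1:**
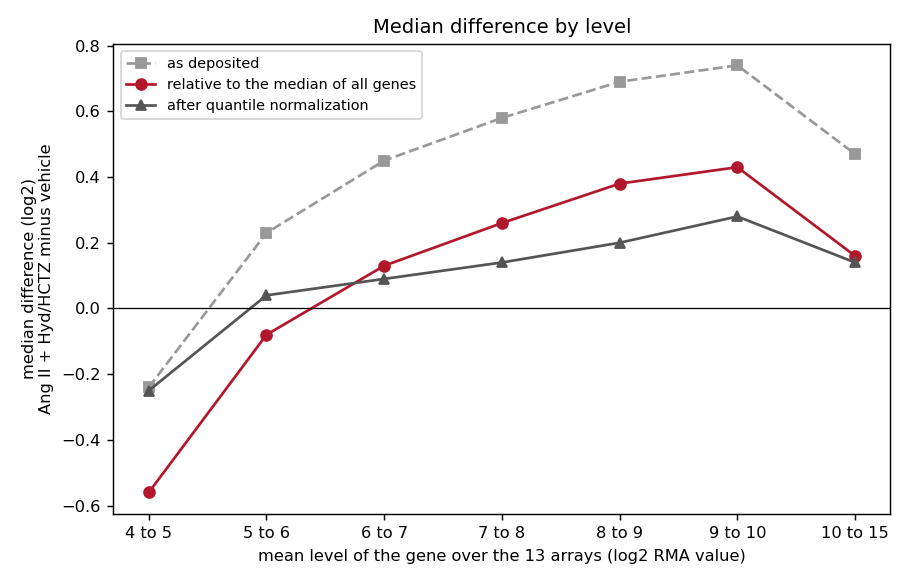
Median difference between Ang II with Hyd/HCTZ and vehicle (log2, vertical axis) for genes grouped by their mean level over the 13 arrays (log2 RMA value, horizontal axis), as deposited, relative to the median of all genes, and after quantile normalization. The relative value runs between -0.56 at level 4 to 5 and 0.43 at level 9 to 10, and quantile normalization narrows this to between -0.25 and 0.28.

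Among the protein-coding genes with the largest rises were a costimulatory ligand, a heat shock chaperone, a scaffold protein and early response genes. Tnfsf9, the ligand of the costimulatory receptor CD137, had a lowest, median and highest level of 8.24, 8.34 and 8.72 on the Hyd/HCTZ arrays and of 3.42, 3.75 and 4.35 on the vehicle arrays. It was below the level of 5 on every vehicle array and rose at least 8.51-fold (adjusted p = 1.28e-16). The level filter took no account of groups, so a gene could be tested because of its Hyd/HCTZ arrays alone. Among the wild-type arrays this was so for Tnfsf9 and, below, for Crem, Rrad and Bub1, which were below 5 on all others. It was so too for Gch1 and Cdk1, below. Outside the Hyd/HCTZ group these exceeded 5 only with Ang II alone (highest 5.26 and 5.31), on too few arrays to pass. Other list members may be of this kind. For such genes the filter itself favoured a rise. Hspa1a, an inducible chaperone of the Hsp70 family, had 8.49, 9.61 and 10.43 with Hyd/HCTZ and 4.25, 4.81 and 5.81 with vehicle. Its groups were far apart, and it rose 19-fold (4.24, SE 0.24, adjusted p = 1.33e-13, quantile difference 4.10). Nr4a3, an orphan nuclear receptor of the immediate early kind, had 8.59, 9.27 and 9.38 with Hyd/HCTZ and 4.45, 5.61 and 6.53 with vehicle, a 10.5-fold rise (3.39, SE 0.28, adjusted p = 3.12e-10). Grasp, a scaffold protein of receptor trafficking, rose at least 8.25-fold. Gadd45b, a stress-induced regulator of p38 signalling, had 8.47, 9.39 and 9.60 with Hyd/HCTZ and 4.82, 6.13 and 6.69 with vehicle and rose 7.68-fold (2.94, SE 0.27, adjusted p = 1.31e-09). For Nr4a3 and Gadd45b the lowest Hyd/HCTZ array was replicate 4, and without it their differences were 3.47 and 3.06.

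Other large rises were those of inflammatory and cAMP-responsive genes. Il1r2, the decoy receptor for interleukin 1, had 8.17, 8.97 and 9.29 with Hyd/HCTZ and 4.12, 5.77 and 7.06 with vehicle, a 7.39-fold rise (2.89, SE 0.38, adjusted p = 6.98e-07). Ptgs2, the inducible cyclooxygenase that begins prostaglandin synthesis, had 9.91, 10.01 and 10.15 with Hyd/HCTZ and 4.88, 7.22 and 8.40 with vehicle, a 6.83-fold rise (2.77, SE 0.42, adjusted p = 4.92e-06). The Hyd/HCTZ arrays were close to each other for Ptgs2, while the vehicle arrays spread widely, with replicate 2 at their low end, and the difference was 2.53 without that array. Egr2, a zinc finger factor of the early growth response family, rose 6.15-fold (8.91 to 9.36 with Hyd/HCTZ, 6.02 to 6.76 with vehicle, adjusted p = 3.68e-11). Crem, a cAMP-responsive factor, rose at least 5.03-fold and Rrad, a small GTPase, at least 5.81-fold. Gch1, the enzyme that begins tetrahydrobiopterin synthesis, rose at least 3.58-fold and Hepacam2, a cell adhesion protein, at least 4.21-fold. For all 12 of these rises the groups did not overlap, which by the choice of genes had to be so, and the call held without either vehicle replicate 2 or Hyd/HCTZ replicate 4. After quantile normalization the differences were 3.32 for Nr4a3, 2.87 for Gadd45b, 2.72 for Il1r2, 2.78 for Ptgs2 and 2.44 for Egr2.

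**Figure D2:**
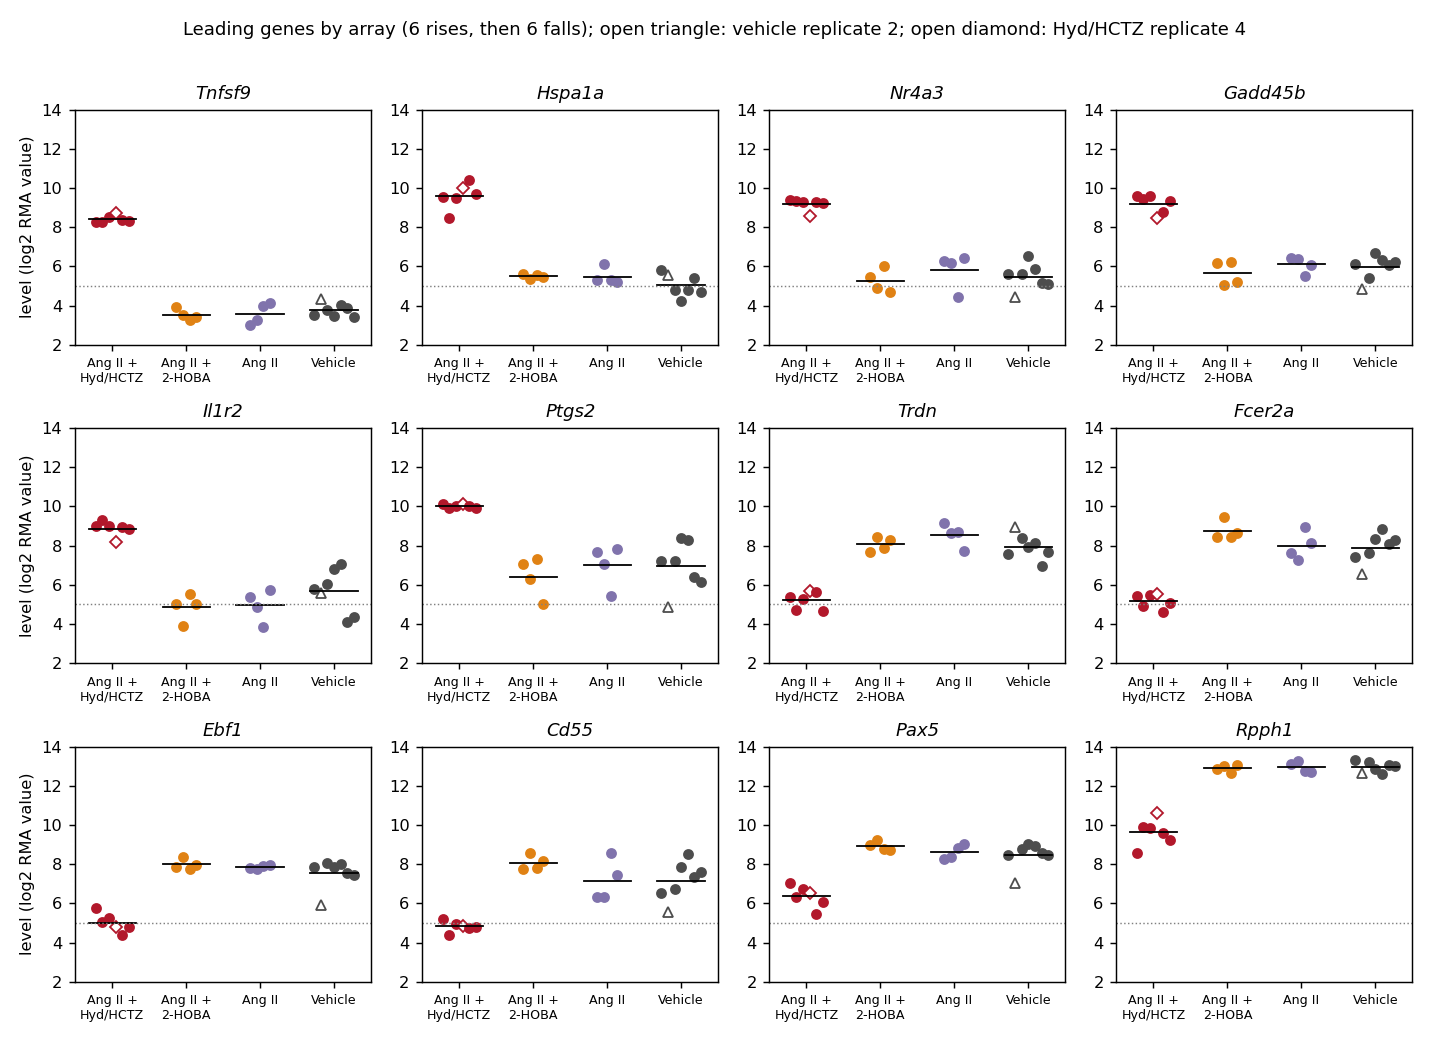
Level (log2 RMA value) of 6 genes that rose and 6 that fell, 1 point per array, for Ang II with Hyd/HCTZ (n = 6), Ang II with 2-HOBA (n = 4), Ang II alone (n = 4) and vehicle (n = 7), with the group mean as a bar and the level of 5 dotted. Tnfsf9 lies at 8.24 to 8.72 with Hyd/HCTZ and at 3.42 to 4.35 with vehicle, and Rpph1 at 8.59 to 10.59 with Hyd/HCTZ and 12.6 to 13.3 with vehicle.

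The Nr4a receptors and cAMP-responsive genes were read as a list of 19 tested genes, of which 7 rose and 3 fell, with a median of 0.20. The rises were Nr4a3 and Crem above, Nr4a2 (8.84 to 9.34 with Hyd/HCTZ, 5.84 to 7.31 with vehicle, 2.29, SE 0.27, adjusted p = 8.93e-08), Nr4a1 (1.78), Nfil3 (1.77), Ptger4 (0.90) and Pde4b (0.55). Nr4a1 ran from 10.45 to 11.08 with Hyd/HCTZ and from 7.30 to 9.55 with vehicle (SE 0.39, adjusted p = 0.000354). Nfil3 is a leucine zipper repressor, Ptger4 a prostaglandin E receptor that raises cAMP, and Pde4b a phosphodiesterase that breaks cAMP down. The members called lower were Pde4d (-0.66), Akap13 (-0.45) and Per2. Pde4d was not called with no median subtracted (adjusted p = 0.0656). Per2 averaged below 5 in both groups and was not called after quantile normalization (adjusted p = 0.0874). The factors that carry the signal to these genes, Creb1 (0.20), Crtc2 (-0.03) and Crtc3 (0.09), did not pass the test. Of the list 36.8% was higher, against 25.3% of all genes, and 15.8% lower, against 27%. On the deposited scale, with no median subtracted, 12 were higher and 1 lower (all genes 43.4% and 13.2%).

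The promoters of the 3 Nr4a genes are shown because cAMP-responsive factors are known to act there. Each runs from 250 bases before to 50 after the gene's start (RefSeq, GRCm38.p6, 5′ to 3′ on the strand of the gene). Capitals mark the core of the cAMP response element, TGACG or CGTCA, which are the same motif on either strand.
Nr4a3, chr4:48045055-48045354, plus strand: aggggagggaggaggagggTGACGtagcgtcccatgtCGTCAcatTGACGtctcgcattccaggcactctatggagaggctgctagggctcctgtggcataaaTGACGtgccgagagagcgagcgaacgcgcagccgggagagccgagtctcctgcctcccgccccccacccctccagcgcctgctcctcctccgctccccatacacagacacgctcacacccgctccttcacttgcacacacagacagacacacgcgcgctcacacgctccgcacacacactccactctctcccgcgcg
Nr4a2, chr2:57123954-57124253, minus strand: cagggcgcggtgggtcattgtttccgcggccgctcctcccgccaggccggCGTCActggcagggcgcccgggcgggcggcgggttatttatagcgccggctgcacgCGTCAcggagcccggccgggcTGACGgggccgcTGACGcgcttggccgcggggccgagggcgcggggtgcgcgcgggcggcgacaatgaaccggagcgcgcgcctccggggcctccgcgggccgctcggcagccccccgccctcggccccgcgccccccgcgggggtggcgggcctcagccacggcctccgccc
Nr4a1, chr15:101266596-101266895, plus strand: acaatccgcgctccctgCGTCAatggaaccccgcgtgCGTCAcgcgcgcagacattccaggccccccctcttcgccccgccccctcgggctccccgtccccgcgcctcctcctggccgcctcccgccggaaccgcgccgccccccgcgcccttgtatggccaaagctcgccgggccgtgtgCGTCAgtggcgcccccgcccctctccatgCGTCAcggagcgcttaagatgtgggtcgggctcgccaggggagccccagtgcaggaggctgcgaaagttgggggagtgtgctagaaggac
Each of these windows held 4 matches. Over all promoter windows of this length, 6837 of 32851 (20.8%) held at least 1, and by gene 23%. Of the 19 list members 14 had a window, and the core was found in 5 of the 6 that rose and in 2 of the 8 others. A match is a description of the letters and no measure of binding.

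Among 19 tested heat shock genes 6 rose and 0 fell, with a median of 0.45. After Hspa1a, the largest rise was that of Dnajb1, a J-domain partner of Hsp70 chaperones, with 7.16, 7.59 and 7.91 on the Hyd/HCTZ arrays and 3.80, 5.33 and 5.53 on the vehicle arrays (4.57-fold, 2.19, SE 0.21, adjusted p = 4.19e-09). Bag3, a nucleotide exchange factor of Hsp70, rose at least 2.26-fold, Hsph1 by 0.89, Hsp90aa1 by 0.79 and Dnaja1 by 0.62. The constitutive chaperone Hspa8 was close to the median of all genes (0.11, adjusted p = 0.606). The mitochondrial chaperones Hspd1 (0.39), Hspe1 (0.36) and Hspa9 (0.54) and the Hsp90 partners Stip1 (0.44), Ahsa1 (0.46) and Fkbp4 (0.41) did not pass the test. The share of the list that rose was 31.6%, against 25.3% of all genes. The count depended on the scaling: with no median subtracted 16 of 19 were higher and 0 lower (all genes 43.4% and 13.2%). Among brighter genes alone (above 7 on at least 3 arrays), against their own median, 2 of 15 rose, while 990 of all 3945 such genes did.

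The promoters of Hspa1a and of Hsph1 are shown as those of an inducible Hsp70 gene and of its partner. Capitals mark the heat shock element as GAANNTTC or TTCNNGAA, each of which reads the same on both strands.
Hspa1a, chr17:34972107-34972406, minus strand: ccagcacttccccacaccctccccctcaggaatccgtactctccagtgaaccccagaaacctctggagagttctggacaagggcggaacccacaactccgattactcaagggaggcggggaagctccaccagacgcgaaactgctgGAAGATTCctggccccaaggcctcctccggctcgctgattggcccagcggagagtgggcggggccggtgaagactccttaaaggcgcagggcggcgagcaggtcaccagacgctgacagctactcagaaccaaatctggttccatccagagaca
Hsph1, chr5:149636287-149636586, minus strand: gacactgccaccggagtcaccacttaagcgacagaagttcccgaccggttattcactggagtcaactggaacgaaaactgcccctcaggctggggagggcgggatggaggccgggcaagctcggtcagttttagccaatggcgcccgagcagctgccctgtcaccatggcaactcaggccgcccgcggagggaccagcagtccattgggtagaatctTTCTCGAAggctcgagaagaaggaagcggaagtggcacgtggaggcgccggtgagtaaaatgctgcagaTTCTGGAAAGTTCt
The window of Hspa1a held 1 match, which begins at position -104 from the gene's start. That of Hsph1 held 3, of which the last 2 overlap. Over all windows 4946 of 32851 (15.1%) held a match, and by gene 17%. Of the 19 list members 15 had a window, and a match was found in 4 of the 5 that rose and in 5 of the 10 others.

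Of 15 tested costimulatory and coinhibitory ligands, through which dendritic cells instruct T cells, 6 rose and 1 fell (median 0.42), shares of 40% and 6.67% against 25.3% and 27% of all genes. With no median subtracted 9 were higher and 1 lower (all genes 43.4% and 13.2%). Besides Tnfsf9 these were Cd86, Cd83, Cd80, Icosl and Cd40. Cd86 had 9.36, 9.55 and 9.76 with Hyd/HCTZ and 5.57, 7.32 and 7.83 with vehicle, a 4.75-fold rise (2.25, SE 0.26, adjusted p = 5.86e-08). Cd80, its sister ligand of CD28, had 7.46, 7.57 and 7.70 with Hyd/HCTZ and 3.79, 5.94 and 6.66 with vehicle, a 2.86-fold rise (1.52, SE 0.28, adjusted p = 6.25e-05). The Hyd/HCTZ arrays lay above every vehicle array for both. The lowest vehicle level of Cd80 was that of replicate 2, and without that array its difference was 1.29. Cd83, a surface marker of maturation, rose 3.8-fold (10.55 to 11.13 with Hyd/HCTZ, 7.81 to 9.32 with vehicle). Icosl (0.65) and Cd40 (0.59) rose less, and the inhibitory ligands Cd274 (0.42) and Pdcd1lg2 (0.05) did not pass the test. Cd276 was the member that fell, at least 1.36-fold.

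Of 14 tested cytokine genes 10 rose (71.4%, against 25.3% of all genes) and 2 fell (median 0.90). Il1b, the main secreted form of interleukin 1, had 10.56, 10.80 and 11.01 with Hyd/HCTZ and 6.83, 8.60 and 9.19 with vehicle, a 4.85-fold rise (2.28, SE 0.31, adjusted p = 1.21e-06). Il1a rose at least 2.2-fold and Il1rn, the interleukin 1 receptor antagonist, by 0.46, next to the rise of the decoy receptor Il1r2. Il12b, the subunit that interleukins 12 and 23 share, had 6.36, 7.17 and 7.52 with Hyd/HCTZ and 4.64, 4.96 and 5.30 with vehicle, at least 3.45-fold higher (adjusted p = 1.03e-09). Its partner Il12a was called lower, with 3.65 to 4.05 with Hyd/HCTZ and 4.44 to 5.01 with vehicle, levels below 5 on average in both groups. Il15, a survival factor for lymphocytes, rose at least 2.36-fold, Ebi3 by 1.10, Tgfb1 by 1.0, Il18 by 0.79 and Tnf by 0.58. Il27, the partner of Ebi3, fell by 0.57, a call that was lost with no median subtracted (adjusted p = 0.178) and with vehicle replicates 4 to 7 alone (adjusted p = 0.444). Il6, Il10 and Il23a did not reach the level for testing.

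Of 19 chemokine and chemokine receptor genes 12 rose (63.2%) and 2 fell (median 0.72). Ccl22, a chemokine of mature dendritic cells, had 6.52, 8.06 and 8.42 with Hyd/HCTZ and 4.75, 5.09 and 5.85 with vehicle (4.71-fold, 2.24, SE 0.25, adjusted p = 3.72e-08), with Hyd/HCTZ replicate 4 well below its group. Cxcl10, an attractant for CXCR3-bearing T cells, had 7.53, 7.65 and 8.09 with Hyd/HCTZ and 4.70, 5.37 and 5.72 with vehicle (4.51-fold, adjusted p = 3.4e-10). Cxcl16 (1.74), Ccl4 (1.67), Cxcl9 (1.53) and Ccl5 (0.99) rose, as did the receptor Ccr7, which guides mature dendritic cells (1.20). The members called lower were Ccr6 (-0.64) and Ccl2. Ccr6 was not called with no median subtracted (adjusted p = 0.137). Ccl2 averaged below 5 in both groups and was called neither after quantile normalization (adjusted p = 0.43) nor without vehicle replicate 3 (adjusted p = 0.0571).

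Of 20 genes of the NF-κB pathway 10 rose (50%) and 0 fell (median 0.55). With no median subtracted 15 were higher (all genes 43.4%). The inhibitor Nfkbie had 8.54, 8.78 and 8.92 with Hyd/HCTZ and 5.47, 6.82 and 6.91 with vehicle (3.73-fold, 1.90, SE 0.18, adjusted p = 2.86e-09). The atypical inhibitor Bcl3 rose by 1.37, Nfkbib by 0.99 and the adhesion target Icam1 by 0.94. Among the subunits, Relb (0.81), Nfkb2 (0.59) and Rel (0.58) rose, while Rela (0.40) and the feedback inhibitors Nfkbia (0.04) and Tnfaip3 (0.56) did not pass the test.

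Immediate early genes rose in 13 of 29 cases (44.8%) and fell in 2 (median 0.46). With no median subtracted 20 were higher and 2 lower (all genes 43.4% and 13.2%). Maff, a small Maf factor, had 7.03, 7.41 and 7.66 with Hyd/HCTZ and 4.45, 4.76 and 5.20 with vehicle, at least 4.24-fold higher (adjusted p = 6.41e-10). Klf4 rose by 1.81, Atf3 and Fosl2 by 1.51 each, Btg2 by 1.33, Egr1 by 1.05 and Fos by 0.87, while Jun (0.33), Junb (0.01), Dusp1 (0.27) and Fosb (1.0) did not pass the test. Against this, Myc had 8.22, 8.48 and 8.55 with Hyd/HCTZ and 8.57, 10.33 and 10.65 with vehicle, 3.64-fold lower (-1.86, SE 0.27, adjusted p = 2.02e-06). The AP-1 member Jund fell by 0.95 with groups that did not overlap (7.85 to 8.21 with Hyd/HCTZ, 8.49 to 8.83 with vehicle).

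**Figure D3:**
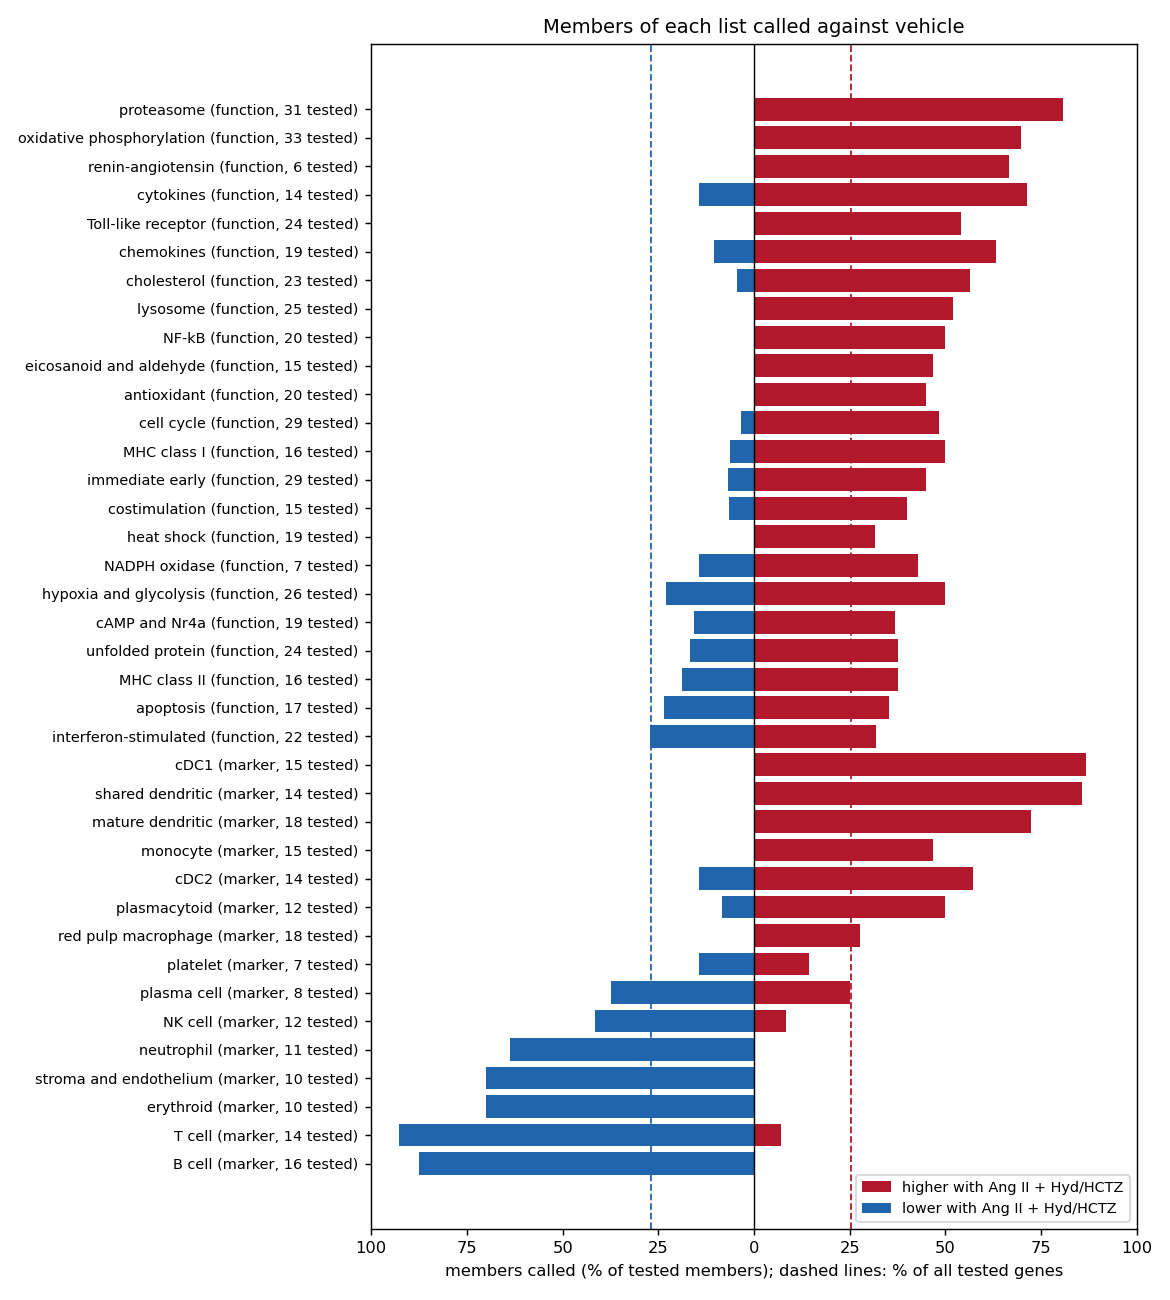
Share of the tested members of each list that was higher (red, to the right) or lower (blue, to the left) with Ang II and Hyd/HCTZ than with vehicle, in percent, for the 38 lists with at least 5 tested members. The dashed lines mark the same shares over all tested genes, 25.3% higher and 27% lower.

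Receptors and adaptors of microbial sensing rose in 13 of 24 cases (54.2%) and fell in 0 (median 0.66). With no median subtracted 20 were higher (all genes 43.4%). Tlr3, the sensor of double-stranded RNA in cDC1, had 7.57, 7.76 and 8.08 with Hyd/HCTZ and 4.83, 5.46 and 5.86 with vehicle (4.23-fold, 2.08, SE 0.20, adjusted p = 4e-09). Cd14, the lipopolysaccharide co-receptor, had 7.53, 8.85 and 9.05 with Hyd/HCTZ and 4.95, 6.61 and 7.15 with vehicle (3.99-fold, adjusted p = 1.46e-05). Tlr13 (1.15), Tlr2 (0.99), Tlr7 (0.67), Tlr12 (0.65) and the adaptors Ly96 (at least 1.84-fold), Traf6 (0.89), Myd88 (0.74) and Ticam1 (0.67) rose too. Tlr4 (0.00), Tlr9 (0.22) and Tlr8 (0.53) did not pass the test. The inflammasome genes were higher as well, Pycard by 1.79 (7.76 to 8.06 with Hyd/HCTZ, 4.97 to 6.44 with vehicle), Nlrp3 by 1.17 and Casp1 by 1.08.

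Oxidative stress is what the study set out to examine, and of 7 tested NADPH oxidase genes 3 were called higher and 1 lower (median 0.35), shares of 42.9% and 14.3%. Of these, 4 were higher and 0 lower with no median subtracted (all genes 43.4% and 13.2%). Cybb, the catalytic subunit, had 9.20, 9.40 and 9.75 with Hyd/HCTZ and 6.34, 9.24 and 9.57 with vehicle and did not pass the test (0.35, adjusted p = 0.371). The low vehicle value is that of replicate 2, and without it the difference was 0.05 (adjusted p = 0.818). Its membrane partner Cyba had 9.67, 9.81 and 10.1 with Hyd/HCTZ and 6.29, 8.48 and 8.83 with vehicle (2.68-fold, 1.42, SE 0.27, adjusted p = 8.07e-05, and 1.22 without vehicle replicate 2). The cytosolic subunits Ncf1 (0.61) and Ncf4 (0.46) rose. The call of Ncf4 was lost without Hyd/HCTZ replicate 6 (adjusted p = 0.0542), and that of Ncf1 when genes below 7 were left out (adjusted p = 0.107). The member called lower, Noxo1, a subunit of non-phagocytic oxidases, averaged below 5 in both groups and was not called after quantile normalization (adjusted p = 0.146).

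Antioxidant genes rose in 9 of 20 cases (45%) and fell in 0 (median 0.49). With no median subtracted 17 were higher and 0 lower (all genes 43.4% and 13.2%). Among brighter genes alone, against their own median, 5 of 14 were higher and 1 lower (all such genes 990 and 1008 of 3945). Nfe2l2, the gene of the antioxidant regulator Nrf2, had 8.59, 9.06 and 9.21 with Hyd/HCTZ and 6.20, 7.03 and 7.55 with vehicle (3.4-fold, 1.77, SE 0.18, adjusted p = 1.1e-08). Sod2, the mitochondrial superoxide dismutase, rose at least 2.11-fold. Slc3a2 (1.09), Cat (1.05), Prdx1 (0.93), and the glutathione synthesis genes Gclc (0.88) and Gclm (at least 1.47-fold) rose too. Other genes often read as Nrf2 targets did not pass the test: Hmox1 (9.81 to 11.41 with Hyd/HCTZ, 9.61 to 11.14 with vehicle, -0.12, adjusted p = 0.747), Srxn1 (0.22), Txnrd1 (0.35) and Gsr (-0.33). The direction of Hmox1 depended on the scaling, with 0.19 when no median was subtracted.

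Genes of eicosanoid and aldehyde metabolism rose in 7 of 15 cases (46.7%) and fell in 0 (median 0.52). With no median subtracted 10 were higher (all genes 43.4%). After Ptgs2 came Alox5ap, the activating protein of 5-lipoxygenase, with 10.08, 10.15 and 10.37 on the Hyd/HCTZ arrays and 7.55, 8.62 and 8.88 on the vehicle arrays (2.9-fold, 1.54, SE 0.22, adjusted p = 2.35e-06). Lta4h, which makes leukotriene B4, rose by 1.02 and the aldehyde dehydrogenase Aldh9a1 by 1.25. Alox5 itself (-0.36), Pla2g4a (0.32) and Aldh2 (0.00) did not pass the test.

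Of 24 genes of the unfolded protein response 9 were higher and 4 lower (median 0.29), shares of 37.5% and 16.7% against 25.3% and 27% of all genes. The count depended on the scaling: with no median subtracted 18 were higher and 1 lower (all genes 43.4% and 13.2%). Among brighter genes alone, against their own median, 4 of 21 rose and 5 fell (all such genes 990 and 1008 of 3945). Herpud1, a membrane protein of endoplasmic reticulum degradation, had 9.60, 9.80 and 9.87 with Hyd/HCTZ and 6.05, 7.87 and 8.01 with vehicle (3.73-fold, 1.90, SE 0.24, adjusted p = 2.6e-07, and 1.75 without vehicle replicate 2). Dnajb9 (1.46), Ppp1r15a (0.94), Hspa5 (0.88), Ern1 (0.82) and Ddit3 (0.65) rose. Pdia4 (-1.0), Xbp1 (-0.49), Hsp90b1 (-0.44) and Eif2ak3 (-0.40) fell, and Xbp1 was not called with no median subtracted (adjusted p = 0.305).

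Of 16 tested genes of antigen presentation on MHC class I 8 rose (50%) and 1 fell (median 0.57). With no median subtracted 12 were higher and 1 lower (all genes 43.4% and 13.2%). The immunoproteasome subunits rose, with Psmb9 at 10.87, 11.13 and 11.37 with Hyd/HCTZ and 8.54, 9.64 and 9.80 with vehicle (2.72-fold, 1.44, SE 0.21, adjusted p = 3.26e-06), Psmb10 at 1.21 and Psmb8 at 0.87. The proteasome activators Psme2 (1.12) and Psme1 (0.66), the trimming peptidase Erap1 (0.68) and Tapbpl (0.72) rose too. The light chain B2m (-0.04) and the peptide transporter genes Tap1 (0.50) and Tap2 (-0.17) did not pass the test. Nlrc5, a transcriptional activator of class I genes, was the member that fell (-0.97, 7.95 to 8.42 with Hyd/HCTZ, 8.64 to 9.08 with vehicle). It is read by 19 probe sets, and 10 of the 18 others were lower, so its direction differed between probe sets.

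For MHC class II, 6 of 16 genes rose and 3 fell (median 0.27). H2-DMa, a chain of the peptide-exchange factor, had 9.78, 10.01 and 10.22 with Hyd/HCTZ and 6.67, 8.27 and 8.80 with vehicle (3.4-fold, 1.77, SE 0.27, adjusted p = 4.4e-06). Ifi30, the reductase that unfolds endocytosed antigen, rose 3.3-fold (10.29 to 10.53 with Hyd/HCTZ, 7.67 to 8.93 with vehicle). The peptide-binding chains moved little, H2-Aa by 0.55 and H2-Eb1 by 0.61 (both called) and H2-Ab1 by -0.01 (not called). The ubiquitin ligases Marchf1 (-0.70) and Marchf8 (at least 1.35-fold lower), of which the first is known to remove class II molecules from the surface, and the class II promoter factor Rfx5 (-0.56) fell. Marchf8 was not called with vehicle replicates 4 to 7 alone (adjusted p = 0.0587). The share of the class II list that rose was 37.5%, against 25.3% of all genes. With no median subtracted 10 of its genes were higher and 2 lower (all genes 43.4% and 13.2%).

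Of 22 interferon-stimulated antiviral genes 7 were higher and 6 lower (median 0.14), shares of 31.8% and 27.3% that are near those of all genes. The count depended on the scaling: with no median subtracted 10 were higher and 1 lower (all genes 43.4% and 13.2%). Among brighter genes alone 2 of 6 were higher and 2 lower (all such genes 990 and 1008 of 3945). Bst2, a tetherin of viral particles that plasmacytoid cells also carry, had 8.98, 9.21 and 9.35 with Hyd/HCTZ and 5.35, 8.14 and 8.80 with vehicle (1.17, SE 0.33, adjusted p = 0.00426, and 0.88 without vehicle replicate 2). With vehicle replicates 4 to 7 alone it was 0.56 (adjusted p = 0.00983). Oas1a (0.92), Usp18 (0.70), Ifih1 (0.67) and Irf7 (0.65) rose, while Rsad2 (-0.79), Ddx58 (-0.78) and Oas2 (-0.64) fell. Mx2 and Oas3 were called lower too but averaged below 5 in both groups. Oas3 was not called after quantile normalization (adjusted p = 0.109), and Oas2 not with no median subtracted (adjusted p = 0.1).

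Genes of the respiratory chain and the proteasome were among the most uniform. Of 33 genes of oxidative phosphorylation 23 rose and 0 fell (median 1.04), 69.7% against 25.3% of all genes. Cycs, the electron carrier cytochrome c, had 8.80, 9.04 and 9.33 with Hyd/HCTZ and 5.90, 6.92 and 7.53 with vehicle (4.03-fold, 2.01, SE 0.20, adjusted p = 8.81e-09). Members of each complex were among the rises, with Ndufb5 (1.78) of complex I, Sdhb (1.12) of complex II, Uqcrb (1.22) of complex III, Cox5b (1.38) of complex IV and Atp5b (1.31) of the ATP synthase. Among the 10 that did not pass were Sdhc (-0.08), Ndufs1 (0.11) and Cox6c (0.20). Of 31 proteasome genes 25 rose and 0 fell (median 0.90), or 80.6%. The catalytic subunits of the core were among them, with Psmb6 at 9.47, 9.58 and 9.73 with Hyd/HCTZ and 6.87, 7.64 and 7.85 with vehicle (3.37-fold, 1.75, SE 0.21, adjusted p = 1.25e-07) and Psmb5 at 1.47. The core subunits Psmb3 (2.00) and Psmb2 (1.53) rose likewise, and the lid subunits Psmd3 (-0.05) and Psmd13 (-0.01) did not pass the test. Among brighter genes alone, against their own median of 0.61, 20 of 31 oxidative phosphorylation genes and 18 of 30 proteasome genes rose. Of all such genes 990 of 3945 rose.

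**Figure D4:**
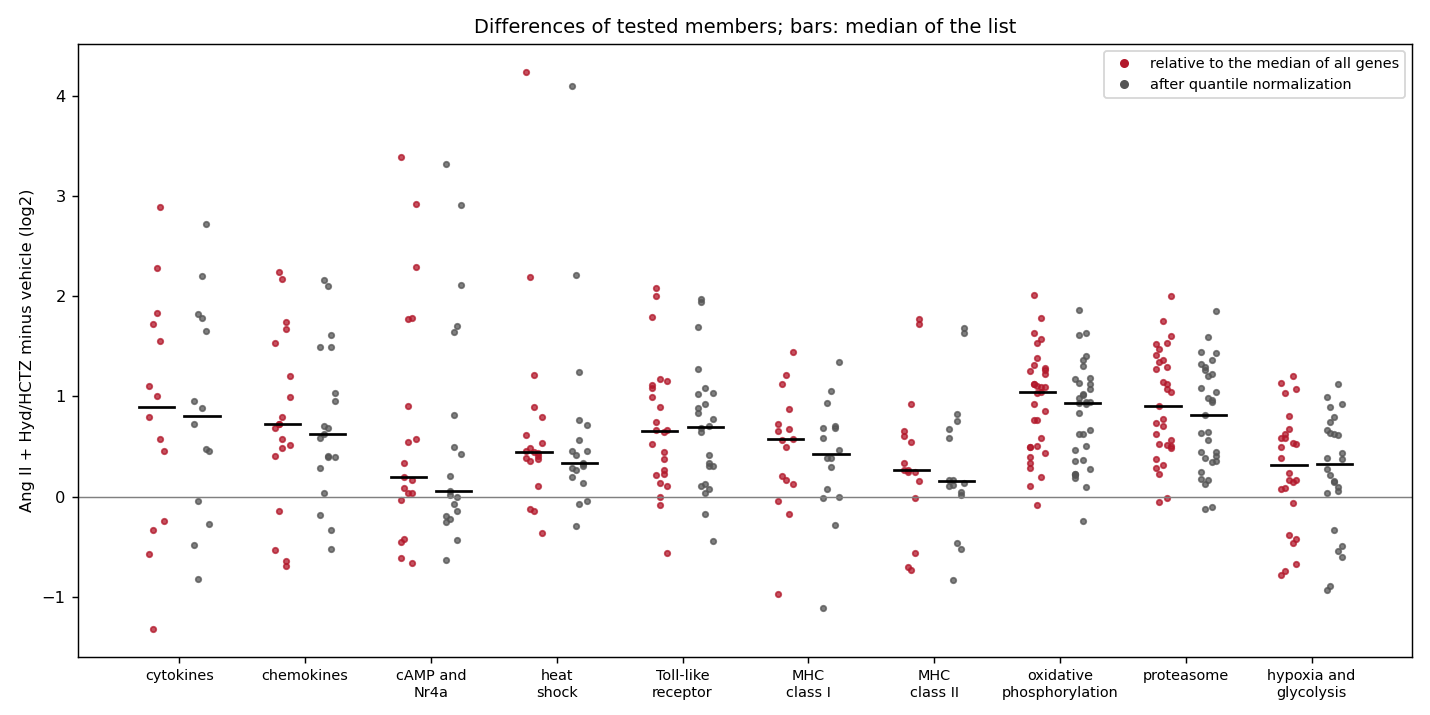
Difference between Ang II with Hyd/HCTZ and vehicle (log2, vertical axis) for each tested member of 10 lists, relative to the median of all genes (red) and after quantile normalization (grey), with the median of each list as a bar. The medians of the oxidative phosphorylation list are 1.04 and 0.93 and those of the MHC class II list 0.27 and 0.16.

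In glycolysis and the hypoxia response 13 of 26 genes rose (50%) and 6 fell (median 0.32). The count depended on the scaling: with no median subtracted 18 were higher and 1 lower (all genes 43.4% and 13.2%). Among brighter genes alone, against their own median, 4 of 13 rose and 4 fell (all such genes 990 and 1008 of 3945). Pgam1 (1.20), Pgk1 (1.07), Ldha (1.03) and Pfkfb3 (1.13), which sets the pace of glycolysis, rose. Ldha had 8.18, 8.49 and 8.63 with Hyd/HCTZ and 6.08, 7.31 and 7.66 with vehicle (2.04-fold, SE 0.19, adjusted p = 6.25e-05). Pkm (-0.74), Hk1 (-0.46), Pdk1 (-0.67) and Ddit4 (-0.78) fell, and Ddit4 was not called with no median subtracted (adjusted p = 0.0596). The other probe set of Pkm differed by -0.19 only. Pkm was called neither with a common array median (adjusted p = 0.082) nor with no filter on dim genes (adjusted p = 0.167). Hif1a did not pass the test (6.66 to 7.34 with Hyd/HCTZ, 5.72 to 6.93 with vehicle, 0.24, adjusted p = 0.305). Hif1a was called higher with no median subtracted (0.55, adjusted p = 0.0166), as it was with a common array median (0.65, adjusted p = 0.00868), with no filter on dim genes (0.71, adjusted p = 0.00322) and with vehicle replicates 1 and 3 alone (0.59, adjusted p = 0.0271).

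Cell cycle genes rose in 14 of 29 cases (48.3%) and fell in 1 (median 0.57). With no median subtracted 23 were higher (all genes 43.4%). Cdk1, the mitotic kinase, had 5.97, 6.24 and 6.65 with Hyd/HCTZ and 4.64, 4.71 and 4.90 with vehicle, at least 2-fold higher (adjusted p = 5.38e-07). Ccnd1 rose 2.95-fold (1.56), Kif11 2.03-fold (1.02), and Bub1, Rrm1 (0.99), Rrm2 (0.93) and Ccna2 (0.92) rose too. Among the wild-type arrays Cdk1 and Bub1 passed the level filter through the Hyd/HCTZ group alone, which favoured a rise. The proliferation marker Mki67 (0.30) and most replication helicase genes did not pass the test, with Mcm2 at 0.12 and Mcm5 at 0.04. Ccnd2 was the member that fell (-0.46), a call that was lost on leaving out any of 8 of the 13 arrays (adjusted p = 0.0617 to 0.149). Of 17 apoptosis genes 6 were higher, among them the promoters of cell death Bcl2l11 (1.14), Pmaip1 (1.01) and Bak1 (0.82), and 4 lower (median 0.33), shares of 35.3% and 23.5% against 25.3% and 27% of all genes. With no median subtracted 10 apoptosis genes were higher and 2 lower (all genes 43.4% and 13.2%). The survival gene Bcl2 ran from 6.40 to 6.76 with Hyd/HCTZ and from 6.07 to 7.97 with vehicle (2.2-fold lower, -1.13, SE 0.20, adjusted p = 3.46e-05). Bbc3, which also promotes cell death, fell (-0.80, adjusted p = 0.000496), so the promoters of cell death did not all move the same way. With vehicle replicates 4 to 7 alone Bbc3 was not called (adjusted p = 0.0645).

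Cholesterol synthesis genes rose in 13 of 23 cases (56.5%) and fell in 1 (median 0.57). With no median subtracted 20 were higher and 1 lower (all genes 43.4% and 13.2%). Idi1 was at least 2.3-fold and Pmvk at least 2.13-fold higher, and Cyp51 (0.95), Nsdhl (0.89), Fdft1 (0.85) and Hmgcs1 (0.59) rose. The regulators Srebf2 (0.26) and Scap (0.34) did not pass the test, and the cholesterol exporter Abca1 fell by 0.81. Of 25 lysosome genes 13 rose (52%) and 0 fell (median 0.57). With no median subtracted 22 were higher (all genes 43.4%). Cd68, a lysosomal glycoprotein of phagocytes, had 9.60, 10.04 and 10.3 with Hyd/HCTZ and 7.33, 8.12 and 8.64 with vehicle (3.35-fold, 1.75, SE 0.21, adjusted p = 1.14e-07). Lipa (1.38), Ctsl (1.29) and the proton pump subunit Atp6v0d1 (1.20) rose, and Ctsd (-0.37) and Ctsb (0.33) did not pass the test.

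Of the renin-angiotensin system 6 genes were tested, and 4 rose (66.7%, against 25.3% of all genes). Anpep, the aminopeptidase that trims angiotensin peptides and marks myeloid cells, had 9.47, 9.50 and 9.63 with Hyd/HCTZ and 5.88, 7.04 and 7.66 with vehicle (5.08-fold, 2.34, SE 0.27, adjusted p = 8.31e-08). Atp6ap2, the prorenin receptor, rose by 1.20 and the carboxypeptidase Prcp by 0.97. Agtrap, which binds the Ang II receptor, rose by 0.45, a call lost on leaving out any of 4 of the 13 arrays (adjusted p = 0.057 to 0.0676). Ace (0.17) did not pass the test, and the Ang II receptor gene Agtr1a did not reach the level for testing, with a highest value of 5.13 over all arrays.

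The labelled cell type was checked against markers. The mean level of 14 markers shared by dendritic cells was 9.27 to 9.37 on the Hyd/HCTZ arrays and 7.93 to 8.57 on the vehicle arrays other than replicate 2, which had 7.34. Of these markers 12 rose (85.7%, against 25.3% of all genes) and 0 fell (median 0.88). Flt3, the growth factor receptor on which dendritic cells depend, had 9.21, 9.28 and 9.45 with Hyd/HCTZ and 7.15, 7.95 and 8.44 with vehicle (2.23-fold, 1.16, SE 0.18, adjusted p = 6.41e-06). Itgax, the gene of CD11c, had 9.29, 9.65 and 9.68 with Hyd/HCTZ and 7.01, 8.40 and 8.94 with vehicle (2.11-fold, adjusted p = 7.25e-05). Kit (1.63), Cst3 (1.58), Spi1 (1.17) and Zbtb46 (0.54) rose, and Bcl11a (0.13) and Cd74 (0.05) did not pass the test. In such bulk samples, more or fewer cells of a type and more or less RNA per cell cannot be told apart.

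Markers of conventional dendritic cells of type 1 (cDC1), which cross-present antigen, rose in 13 of 15 cases and fell in 0 (median 1.04). The share that rose was 86.7%, against 25.3% of all genes. The mean level of this list was 8.02 to 8.30 with Hyd/HCTZ and 6.39 to 7.07 with vehicle, where replicate 2 had 6.57. Xcr1, the chemokine receptor of cDC1, had 7.41, 7.62 and 7.82 with Hyd/HCTZ and 4.47, 5.17 and 5.65 with vehicle (4.4-fold, 2.14, SE 0.23, adjusted p = 1.8e-08). Ifi205 (2.04), Gcsam (1.79), Clec9a (1.16) and Irf8 (0.40) rose. Of 14 markers of type 2 cells (cDC2) 8 rose and 2 fell (median 0.71), shares of 57.1% and 14.3% against 25.3% and 27%. Cd209a (2.07, 7.67 to 8.14 with Hyd/HCTZ, 4.33 to 6.76 with vehicle), Irf4 (1.10) and Clec4a4 (at least 3.56-fold) rose, Sirpa (0.18) did not pass the test, and Ltb (-1.19) and Dtx1 (-0.96) fell. Both Ltb and Dtx1 are also expressed by B cells.

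Markers of mature dendritic cells rose in 13 of 18 cases (72.2%, against 25.3% of all genes) and fell in 0 (median 0.86). Besides Ccl22, Cd83 and Ccr7 they included Fscn1 (1.54), Socs2 (at least 1.8-fold) and Serpinb6b, which had 7.17, 8.37 and 8.58 with Hyd/HCTZ and 5.64, 6.35 and 6.81 with vehicle (2.99-fold, 1.58, SE 0.20, adjusted p = 4.29e-07). The Hyd/HCTZ arrays were not alike here. The mean level of the list was 6.78 on replicate 4, close to the highest vehicle level of 6.74, and 7.59 to 7.79 on the other 5 arrays. Without replicate 4, 14 members rose (2542 of all 10452 genes) and the median was 0.96. The same array stood at the low end of its group for the monocyte list, at 7.88 against 8.34 to 8.72, and for the red pulp macrophage list, at 7.57 against 8.04 to 8.92. For the neutrophil list it stood at the high end, at 6.45 against 5.37 to 6.03.

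Plasmacytoid markers rose in 6 of 12 cases and fell in 1 (median 0.38), with Siglech at 0.77 and Cd300c at 1.09. The shares were 50% and 8.33%, against 25.3% and 27% of all genes. Of 15 monocyte markers 7 rose (46.7%) and 0 fell (median 0.41). Cd14 and Nr4a1 were among them, while Lyz2 (0.03), Csf1r (0.38) and Fcgr1 (0.30) did not pass the test. With vehicle replicates 4 to 7 alone, 4 of the 15 monocyte markers rose (all genes 24.2%). Of 18 red pulp macrophage markers 5 rose and 0 fell (median 0.30), 27.8% against 25.3% of all genes. These were Timd4 (1.33), C1qb (1.35), C1qa (1.04), Spic (0.97) and C1qc (0.92). With vehicle replicates 4 to 7 alone 2 of the 18 rose and 1 fell (all genes 24.2% and 20.1%).

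**Figure D5:**
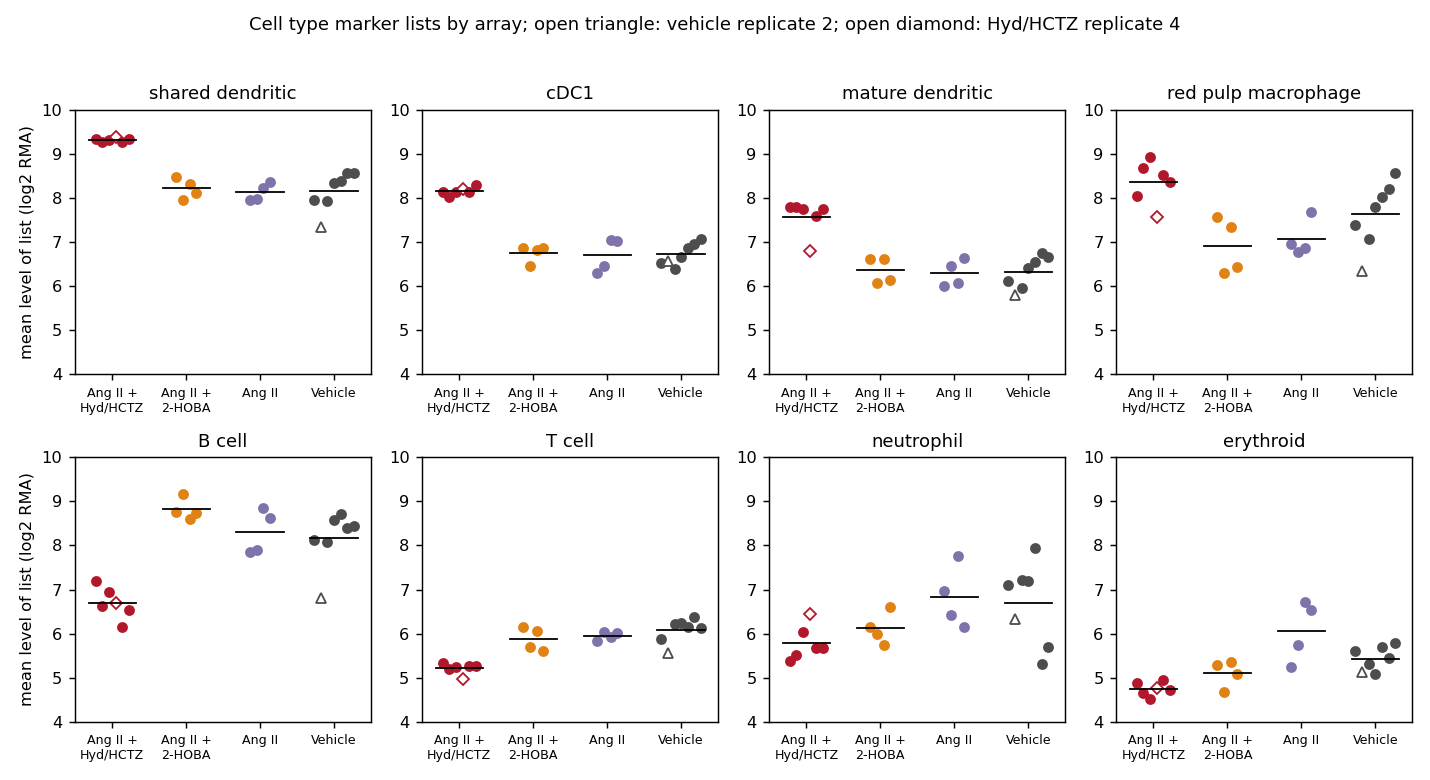
Mean level (log2 RMA value) of 8 cell type marker lists on each array of Ang II with Hyd/HCTZ (n = 6), Ang II with 2-HOBA (n = 4), Ang II alone (n = 4) and vehicle (n = 7), with the group mean as a bar. The shared dendritic list lies at 9.27 to 9.37 with Hyd/HCTZ, above every other array, and the B cell list at 6.14 to 7.19, below the vehicle arrays other than replicate 2 (open triangle, 6.81).

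Markers of B cells fell almost throughout, with 0 of 16 higher and 14 lower (median -1.64), 87.5% against 27% of all genes. Their mean level was 6.14 to 7.19 with Hyd/HCTZ and 8.09 to 8.72 with vehicle other than replicate 2, which at 6.81 lay among the Hyd/HCTZ arrays. Fcer2a, the low-affinity IgE receptor CD23, had 4.63, 5.25 and 5.51 with Hyd/HCTZ and 6.53, 8.11 and 8.87 with vehicle (8.06-fold lower, -3.01, SE 0.32, adjusted p = 1.75e-08). Cr2, the complement receptor CD21, had 5.62, 5.69 and 6.28 with Hyd/HCTZ and 6.11, 9.24 and 9.81 with vehicle (9.67-fold lower, -3.27, SE 0.36, adjusted p = 4.18e-08). Only vehicle replicate 2 kept the groups from separating for Cr2, and without it the difference was -3.61. The B lineage factors Ebf1 (-2.84, 4.37 to 5.78 with Hyd/HCTZ, 5.91 to 8.07 with vehicle) and Pax5 (-2.43, 5.46 to 7.02 with Hyd/HCTZ, 7.04 to 9.03 with vehicle) fell, as did Ms4a1 (-2.27), Cd22 (-1.67), Cd79b (-1.60) and Cd79a (-1.51). Spib (-0.55) and Fcrla (-0.50) did not pass the test. The quantile differences were -2.88 for Fcer2a, -2.65 for Ebf1 and -2.48 for Pax5. The count of 14 also held with no median subtracted (all genes 13.2%), and after quantile normalization all 16 tested members were called lower (all genes 20.9%).

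T cell markers fell in 13 of 14 cases (median -1.25), 92.9% against 27%. Their mean level was 4.96 to 5.33 with Hyd/HCTZ and 5.57 to 6.37 with vehicle. Lat, an adaptor of the T cell receptor, had 5.31, 5.68 and 5.93 with Hyd/HCTZ and 6.73, 7.20 and 7.54 with vehicle (3.66-fold lower, -1.87, SE 0.19, adjusted p = 7.53e-09). Lef1 was at least 3.43-fold lower, and Cd3g (at least 3.39-fold lower), Cd3e (-1.78), Cd3d (-1.37) and Cd28 (-0.82) fell. Cd4, which splenic cDC2 also carry, rose by 0.75 (6.56 to 6.82 with Hyd/HCTZ, 4.93 to 6.37 with vehicle). With no median subtracted 10 members were lower (all genes 13.2%). For the NK cell list 5 of 12 fell and 1 rose (median -0.52), shares of 41.7% and 8.33% against 27% and 25.3%. Klra8 (-1.67) and Gzma (-1.65) were lower and Klrd1 (0.91) higher. Klrd1 is expressed by dendritic cells too.

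Neutrophil markers fell in 7 of 11 cases (median -1.19), 63.6% against 27% of all genes. Among them were Ngp (at least 2.48-fold lower), Retnlg (-1.77) and S100a9 (-1.27), and no member kept its groups apart. After quantile normalization 4 were lower (all genes 20.9%), and with vehicle replicates 4 to 7 alone 4 (all genes 20.1%). Once Hyd/HCTZ replicate 4 was left out 9 were lower (2766 of all 10452 genes). Ltf, called lower, averaged below 5 in both groups and was not called after quantile normalization (adjusted p = 0.109). Erythroid markers were lower in 7 of 10 cases (median -0.92), 70% against 27%, and 3 of these averaged below 5 in both groups. With no median subtracted 4 were lower and 1 higher (all genes 13.2% and 43.4%). Alas2, the erythroid heme synthesis enzyme, had 4.43, 4.65 and 5.15 with Hyd/HCTZ and 6.11, 7.02 and 7.88 with vehicle, at least 4.84-fold lower (adjusted p = 4.97e-07). The anion exchanger Slc4a1 fell 3.83-fold. After quantile normalization 3 erythroid markers were lower (all genes 20.9%). Stromal and endothelial markers fell in 7 of 10 cases (median -0.85), 70% against 27%, with Sparc at least 3.71-fold lower. The other stromal members that fell were dim, and Cxcl12 and Dcn averaged below 5 in both groups. Of 8 plasma cell markers 2 were higher and 3 lower, shares of 25% and 37.5% against 25.3% and 27%. Jchain fell by 1.26, and Slamf7 (1.40) and Irf4, both also expressed by dendritic cells, rose. Platelet markers had 1 of 7 higher and 1 lower, 14.3% each. The lower one, Itga2b, averaged below 5 in both groups and was called neither after quantile normalization (adjusted p = 0.112) nor with no median subtracted (adjusted p = 0.0505). Of 2 mast cell and basophil markers Gata2 was called lower, and it too averaged below 5 in both groups. How far these marker levels account for the other differences was not tested.

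Among the largest falls, several genes lay outside the marker lists. Cd55, a complement decay factor, had 4.36, 4.83 and 5.21 with Hyd/HCTZ and 5.56, 7.36 and 8.51 with vehicle, at least 5.56-fold lower (adjusted p = 1.83e-06). Ralgps2, a Ral exchange factor, fell 5.07-fold (-2.34), Bcar3, an adaptor of Ras-family signalling, 4.46-fold (-2.16), and Slfn1, a Schlafen family gene, at least 3.57-fold. Trdn, known for its part in calcium release in muscle, had 4.66, 5.34 and 5.71 with Hyd/HCTZ and 6.98, 7.95 and 8.97 with vehicle (8.22-fold lower, -3.04, SE 0.31, adjusted p = 1.08e-08), and the 18 other probe sets of this gene were lower too (-3.56 to -0.76). Chd7, a chromatin remodeler, had 7.36, 7.76 and 8.07 with Hyd/HCTZ and 9.39, 9.68 and 10.22 with vehicle (4.95-fold lower, -2.31, SE 0.17, adjusted p = 2.48e-11), and 24 of its 29 other probe sets were lower. Rbm25, a splicing factor, fell 5.21-fold (7.80 to 9.35 with Hyd/HCTZ, 9.78 to 11.74 with vehicle), and its 3 other probe sets were lower as well. Cngb1, a channel subunit known from photoreceptors, was at least 2.85-fold lower, with vehicle replicate 2 far above the other vehicle arrays at 8.62. The quantile differences were -2.88 for Trdn, -2.51 for Rbm25, -2.43 for Chd7, -2.29 for Ralgps2 and -2.0 for Bcar3.

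Small noncoding RNAs held some of the widest differences of all. Rpph1, the RNA of RNase P, had 8.59, 9.72 and 10.59 with Hyd/HCTZ and 12.6, 13 and 13.3 with vehicle (12.6-fold lower, -3.65, SE 0.20, adjusted p = 4.62e-14). Rmrp, the RNA of the related RNase MRP, had 7.63, 9.22 and 9.79 with Hyd/HCTZ and 10.58, 11.69 and 12.7 with vehicle (8.58-fold lower, -3.10, SE 0.35, adjusted p = 5.31e-08). In the other direction the small nucleolar RNA Snord14e had 10.19, 10.45 and 11.26 with Hyd/HCTZ and 4.40, 6.80 and 7.19 with vehicle (13.8-fold higher, 3.79, SE 0.38, adjusted p = 7.93e-09). Its gene overlaps Hspa8, whose own probe set differed by 0.11. Snora70, which overlaps Rpl10, rose 4.89-fold (2.29), and Rpl10 by 0.73. After quantile normalization the differences were -3.69 for Rpph1, -3.15 for Rmrp, 3.82 for Snord14e and 2.27 for Snora70. Over 141 tested small noncoding RNAs 13 rose and 94 fell (median -0.80), and over 10021 protein-coding genes 2607 rose and 2555 fell (median 0.02). For 69 microRNA probe sets 8 rose and 51 fell (median -0.76), and after quantile normalization 10 rose and 40 fell. The microRNA probe sets were dim, with a median vehicle level of 5.29.

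The 3 comparisons with vehicle share the same vehicle arrays, and they gave very different counts. With Ang II alone 0 genes were called in limma, with 270 at an unadjusted p below 0.05 and 401 after quantile normalization. With Ang II and 2-HOBA 0 were called, with 647 at an unadjusted p below 0.05 and 882 after quantile normalization. The difference between treatments was tested directly. Ang II with Hyd/HCTZ differed from Ang II with 2-HOBA in 4631 genes (44.3%) and from Ang II alone in 5083 genes (48.6%), and after quantile normalization in 3875 (37.1%) and 4376 (41.9%).

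The leading genes showed the same order. Tnfsf9 ran from 8.24 to 8.72 with Hyd/HCTZ, 3.24 to 3.92 with 2-HOBA, 2.99 to 4.12 with Ang II alone and 3.42 to 4.35 with vehicle. Every wild-type array outside the Hyd/HCTZ group was thus below 5, so among these arrays the gene passed the filter through that group alone. Hyd/HCTZ was higher than 2-HOBA (adjusted p = 1.24e-15) and than Ang II alone (adjusted p = 2.78e-15). Hspa1a ran from 8.49 to 10.43 with Hyd/HCTZ, 5.34 to 5.63 with 2-HOBA, 5.18 to 6.10 with Ang II alone and 4.25 to 5.81 with vehicle. Cd86 ran from 9.36 to 9.76 with Hyd/HCTZ, 6.91 to 7.32 with 2-HOBA, 6.18 to 7.47 with Ang II alone and 5.57 to 7.83 with vehicle. In each case the Hyd/HCTZ arrays stood apart, and the other 3 groups overlapped. Il1b was 2.28 higher than vehicle with Hyd/HCTZ, -0.77 with 2-HOBA and -0.56 with Ang II alone, of which only the first was called. On the falling side, Rpph1 lay at 12.64 to 13.08 with 2-HOBA and at 12.68 to 13.28 with Ang II alone, and Hyd/HCTZ was lower than these by 3.53 and 3.65 on the log2 scale. Fcer2a lay at 8.42 to 9.45 with 2-HOBA and 7.28 to 8.97 with Ang II alone, above all Hyd/HCTZ arrays. Set against Ang II with 2-HOBA, 16 of 16 B cell markers were lower with Hyd/HCTZ (21.1% of all genes), and against Ang II alone 14 (25% of all genes). For Cybb and Hmox1, Hyd/HCTZ did not pass the test against 2-HOBA (0.16, adjusted p = 0.742, and 0.75, adjusted p = 0.0604) or against Ang II alone (0.32, adjusted p = 0.499, and 0.52, adjusted p = 0.188).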

How the data were processed

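Splenic dendritic cells were profiled on Affymetrix mouse gene arrays. The authors deposited log2 expression values for each probe set, made by RMA (background correction, quantile normalization and summarization) with Partek 6.6, per the submitters' processing notes, and further settings are missing from the sources used here. Groups were taken from the sample titles. Of 35556 probe sets 21789 had 1 symbol in the platform annotation, 1621 had several and 12146 had none. For a gene with several probe sets the one with the highest mean was used. A level above 5 on at least 3 arrays was required, which left 10452 of 19938 genes.

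A limma fit (version 3.58.1, R 4.3.3) with 6 group means over all 28 arrays tested each difference, two-sided, against the median of all the differences, with Benjamini-Hochberg adjustment over all of them. The fit was tested on simulated data. The number of arrays limits the precision.

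The comparison and the 39 gene lists were chosen with earlier results of these data known. Genes given in full were the 12 largest rises and 12 largest falls called both ways with separate groups, the 2 leading small noncoding RNAs in each direction, the 4 members of each list with the smallest p and up to 2 that went the other way, and 12 genes set by name. Other list members in the text were chosen as examples after their values were seen. Predicted genes and immune receptor segments were counted but not named. The control probe sets, which have no symbol and the lowest identifiers, were examined after seeing the data. There were 25 alternatives, of which quantile normalization without vehicle replicate 2 was added after seeing the data. Promoters were matched by symbol in the RefSeq table of GRCm38.p6.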

Additional observations from a re-analysis of the deposited data

Results flagged for a closer look

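In each group of 6 or 7 arrays, the named genes were searched for an array whose gap to its nearest neighbour exceeded Dixon's critical value. Of 386 groups of values over 193 genes 43 (11.1%) held such an array, while chance gives about 1 in 20. Most of these fell on 2 arrays.

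Hyd/HCTZ replicate 4 stood lowest for 14 genes. Among early response genes and regulators these were Nr4a3 (8.59), Nr4a2 (8.84), Crem (7.01), Nfe2l2 (8.59) and Traf6 (5.73). Among genes of mature dendritic cells, cytokines and adhesion they were Ccl22 (6.52), Serpinb6b (7.17), Il15 (6.16), Tnf (6.74) and Icam1 (7.32). The others were Bcl2l11 (6.65), Idi1 (5.69), Atp6v0d1 (7.12) and Fcgr4 (5.97). It stood highest for Snord14e (11.26) and for the neutrophil gene Ngp (6.59). Elsewhere in the group, replicate 1 was lowest for Nfkbib (8.55) and replicate 5 for Aldoc (5.34) and Itgax (9.29).

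Vehicle replicate 2 stood lowest for 21 genes. Those of B cells were Cr2 (6.11), Ebf1 (5.91), Pax5 (7.04) and Dtx1 (6.35). Those of myeloid and dendritic cells were Cybb (6.34), Ncf4 (5.80), Irf4 (4.00), Cd80 (3.79), Timd4 (5.07), Fcgr4 (4.78) and Ctsh (6.85). Those of protein folding and transport were Herpud1 (6.05), Sdf2l1 (5.79), Pdia4 (6.14), Slc3a2 (6.80) and Atp6ap2 (4.12). The rest were Usp18 (4.79), Ccnd2 (6.55), Bcl2 (6.07), Nsdhl (4.28) and Snord14e (4.40). It stood highest for Cngb1 (8.62). Vehicle replicate 4 was highest for Egr2 (6.76) and vehicle replicate 7 for Agtrap (6.09). What sets these arrays apart was not tested.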

How the results depend on the processing

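The scaling moved the split of higher and lower calls most. With the deposited differences tested against 0, 4537 genes were higher and 1382 lower (76.7% of calls higher, against 48.4%), with a common array median 5154 and 1011 (83.6%), and with no filter on dim genes 5969 and 1733 (77.5%). Quantile normalization gave 56.1% higher. With genes above 7 only, 1998 of 3945 were called, 990 higher and 1008 lower, with fewer genes tested. Leaving out 1 array at a time gave 5044 to 5763 called, 2415 to 2910 higher and 2586 to 2919 lower. Among 193 named genes the call and direction held for 184 after quantile normalization, 178 with the deposited differences, 175 with vehicle replicates 4 to 7, 169 with a common array median, 164 with no filter, 131 of 141 with genes above 7, and 189 to 193 on leaving out 1 array. Of 78 list counts 71, 50, 62, 42, 40 and 36 stayed within 1.5 times of the main count under the same first 6 settings. Reversals were few: Ccnd2 (0.01, no filter), Cybb (-0.08 with vehicle replicates 4 to 7, and -0.14 with quantile normalization without vehicle replicate 2), Hmox1 (0.19 deposited, 0.30 common median, 0.35 no filter, -0.23 to 0.04 on leaving out 1 array, 0.04 being without Hyd/HCTZ replicate 4) and Hif1a (-0.06, genes above 7), and the cause was not tested. Bbc3 moved to -0.53 without vehicle replicate 2, against -0.80. Calls of Txndc5 were lost on leaving out any of 9 arrays and of Clec1b any of 4. With the replicate number as a block 5481 genes were called, but same-numbered arrays were not alike (correlations -0.192 to 0.081), so the numbers do not pair the arrays. Dim genes near 5 are limited by signal over background.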
